A study of Homo sapiens with 6 samples.

Results

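The 2-oxoacid dehydrogenases are described here through 10 genes that encode their subunits, out of 60612 genes in the deposited expression table. The genes were picked by name: OGDH and DLST (2-oxoglutarate dehydrogenase), PDHA1, PDHB, DLAT and PDHX (pyruvate dehydrogenase), BCKDHA, BCKDHB and DBT (branched-chain 2-oxoacid dehydrogenase), and DLD, which the complexes share. DLST was chosen on its measured difference in the comparison reported here, and the other 9 because they belong to the same enzyme family. The values of DLST are therefore a description. All 10 genes were found in the table and all 10 passed the filter on low counts, as did 18863 genes in all.

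RNA was sequenced from PANC-1 cells, an established human line from a pancreatic ductal carcinoma, grown in medium with fetal bovine serum. The treated group has 3 libraries of cells given D(+)-raffinose pentahydrate, a plant trisaccharide that contains galactose, at 50 µM for 24 h. The untreated group has 3 libraries labelled as PANC-1 cells, with no vehicle or time named for single libraries. Nothing in the labels says whether replicates are independent cultures, and the p-values therefore measure a spread among libraries that may be technical. All cells are of 1 line, and in RNA of a whole culture fewer cells that express a gene and less RNA per cell cannot be told apart.

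These complexes are large assemblies in the mitochondrial matrix that oxidise and decarboxylate a 2-oxoacid and pass its acyl group to coenzyme A. An E1 enzyme, which uses thiamine diphosphate, removes carbon dioxide. An E2 enzyme carries the acyl group on a swinging lipoyl arm and hands it to coenzyme A, and the flavoprotein E3 reoxidises the arm and makes NADH. The pyruvate complex feeds carbon from glycolysis into the citric acid (TCA) cycle, the 2-oxoglutarate complex makes succinyl-CoA within the cycle, and the branched-chain complex commits leucine, isoleucine and valine to breakdown.

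Libraries held 59723420 to 66063664 counts each. Of 7 markers of ductal epithelium, KRT8, KRT18, KRT7, SOX9 and CDH1 reached a mean of 1 FPKM in a group, while KRT19 and EPCAM did not. Of 14 markers of other cell types, 6 had no count in any library. The summed level of all 14 was 0.594 to 0.667 FPKM in untreated and 0.459 to 0.59 FPKM in raffinose libraries. FPKM is the level per length of transcript and per sequenced fragment. Of all genes tested, 0.122% were called by edgeR at an adjusted p under 0.05 (7 higher and 16 lower with raffinose). This balance turned to 15 higher and 8 lower without untreated replicate 1, and to 12 higher and 8 lower without untreated replicate 2. KRT8 and KRT18, the main keratins of these cells, were lower with raffinose in all 3 libraries than in any untreated one, with log2 fold changes of -0.55 (SE 0.12) and -0.46 (SE 0.08) and edgeR adjusted p of 0.164 and 0.119. DESeq2 called both (adjusted p = 0.00579 and 0.00124) and also KRT7 (log2 fold change -0.58, adjusted p = 0.0297). The part of a shift in cell composition in the results below was not tested.

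DLST lies on chromosome 14 at 74881891 to 74902551 (plus strand, ENSG00000119689) in the deposited table. Its start is that of GENCODE 29 on GRCh38, and 7 of the 10 genes, DLST included, have the start given there. The end of DLST in GENCODE 29 is 74903745, which differs from the deposited end. Start and end both match for 5 of the 10 genes. The build of the deposited coordinates is not named. The 250 bases before the RefSeq start of DLST, and the same window of DLAT, the E2 gene of the pyruvate complex, are shown so that the genes with a lower and a similar level can be compared. Capitals mark exact matches to the letters CCGGAAG or their reverse complement, a form of the site bound by ETS factors.
DLST chr14:74881666-74881915 (GRCh38.p14, plus strand): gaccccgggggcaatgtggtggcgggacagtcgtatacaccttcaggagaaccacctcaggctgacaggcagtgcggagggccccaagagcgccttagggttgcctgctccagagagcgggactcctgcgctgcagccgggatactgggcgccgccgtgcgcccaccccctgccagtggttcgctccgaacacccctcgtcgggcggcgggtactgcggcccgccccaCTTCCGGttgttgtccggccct
DLAT chr11:112025158-112025407 (GRCh38.p14, plus strand): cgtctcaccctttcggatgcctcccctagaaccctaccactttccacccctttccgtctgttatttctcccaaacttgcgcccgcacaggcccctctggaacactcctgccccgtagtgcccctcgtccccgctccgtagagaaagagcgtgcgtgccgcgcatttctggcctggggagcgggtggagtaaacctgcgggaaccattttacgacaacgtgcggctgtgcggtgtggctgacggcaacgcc
RefSeq windows were found for 9 of the 10 genes, 11 windows in all. The ETS letters occurred once in the DLST window, 22 bases before the RefSeq start, and in none of the windows of the other 8 genes. The match, at 74881894 to 74881900, lies after the start of DLST in the deposited table, 74881891, and so inside the gene as listed there. The ETS letters were present in 8.52% of the 35116 windows of this length. Shorter ETS forms and those with a mismatch were not counted, so windows without capitals may hold them. The exact palindromic form of the NRF1 motif was in none of the windows of the 9 genes, against 1.03% of all windows, and forms with a mismatch were not counted. TATAAA was likewise in none, against 10.7%. CCAAT was in 7 of the 11 windows of the 9 genes, against 32.01% of all windows. These belong to 7 genes, among them neither DLST nor DLAT. All motifs were searched on both strands. They were chosen after the DLST window had been read, and a match is a description of letters.

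DLST encodes the E2 of the 2-oxoglutarate complex, the succinyltransferase that forms its core. In CPM, the count relative to the library total after TMM scaling between libraries, DLST was at 143, 141 and 148 in untreated replicates 1, 2 and 3. In raffinose replicates 1, 2 and 3 it was at 81.4, 78.0 and 80.1 CPM. The groups were far apart, and the spread within each was small beside the gap. Its mean was 144 ± 3.40 CPM without and 79.8 ± 1.69 CPM with raffinose (SD, n = 3 per group), so that DLST fell by 44.5%. The log2 fold change was -0.85 (SE 0.05), and the edgeR adjusted p of 0.00655 comes from the contrast that chose the gene. Among the 11962 genes with a mean of at least 1 FPKM in a group, 108 had a lower log2 fold change than DLST. Without untreated replicate 3 the log2 fold change was -0.83 and the edgeR adjusted p was 0.0596.

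OGDH (ENSG00000105953, chromosome 7, 44606572 to 44709066, plus strand) encodes the E1 of the same complex, which decarboxylates 2-oxoglutarate. It was at 165, 209.5 and 203 CPM in untreated replicates 1, 2 and 3. The raffinose libraries 1, 2 and 3 were at 160.2, 159 and 158 CPM. All raffinose libraries were below all untreated ones, but untreated replicate 1 was closer to them than to the rest of its group. The log2 fold change was -0.28 (SE 0.10) and did not pass the test (edgeR adjusted p = 0.308). Without untreated replicate 1 it was -0.38 with an adjusted p of 0.108. On the FPKM scale untreated replicate 1 of OGDH, at 25.5, lay among the raffinose libraries at 25.46 to 25.9. The SD of OGDH was 24.1 CPM in untreated and 1.36 CPM in raffinose libraries.

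DLD (ENSG00000091140, chromosome 7, 107891162 to 107919655, plus strand) encodes E3, the dihydrolipoamide dehydrogenase that serves every complex of the family. DLD was at 110.5, 105 and 109 CPM in untreated replicates 1, 2 and 3, against 120.3, 120.4 and 116 CPM in the same order with raffinose. Its groups did not overlap, in the direction opposite to DLST. The log2 fold change of DLD was 0.14 (SE 0.05), and it did not pass the test (edgeR adjusted p = 0.337).

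**Figure D1:**
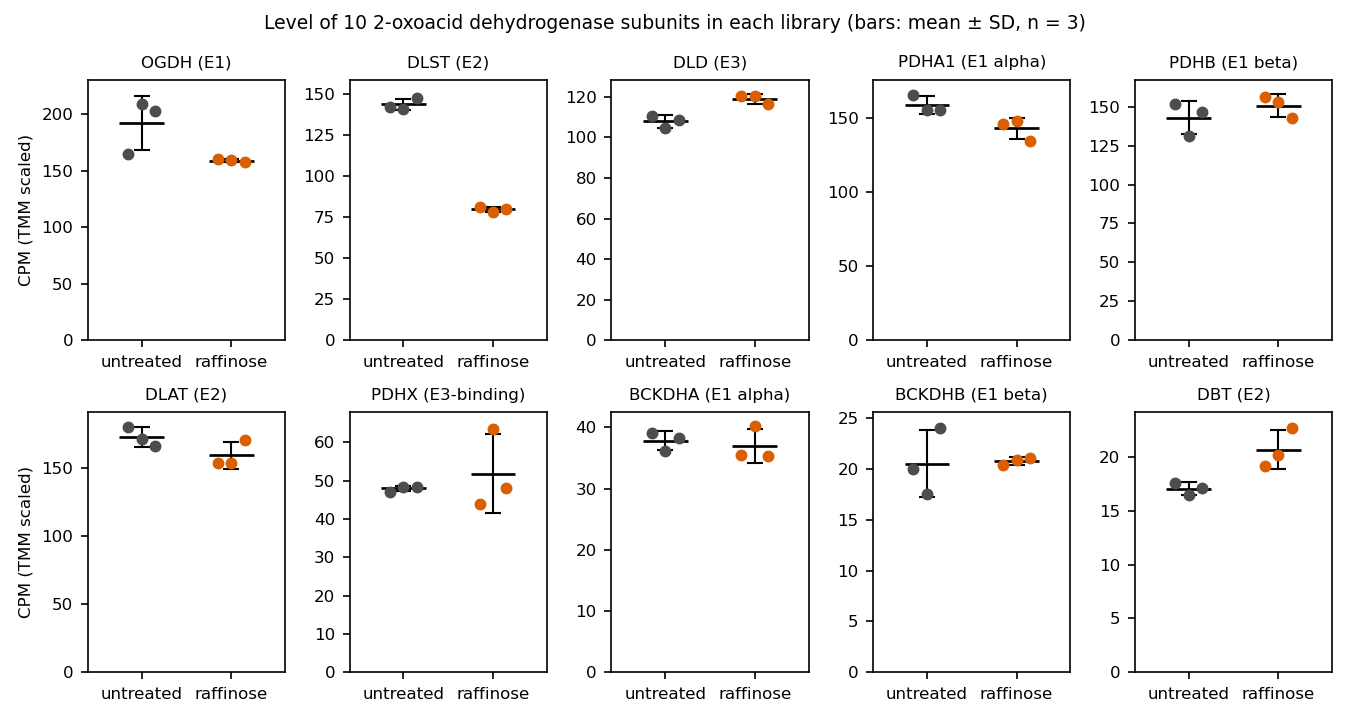
Level of each of the 10 genes in CPM (vertical axes from 0) in 3 untreated and 3 raffinose libraries, with points for libraries and bars for mean ± SD. DLST has its raffinose libraries between 78.0 and 81.4 CPM and its untreated ones between 141 and 148 CPM, while the groups of the other genes lie close together or overlap.

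The pyruvate complex has an E1 of an alpha and a beta chain, of which the alpha chain PDHA1 carries the serines that switch the complex off when phosphorylated. PDHA1 (ENSG00000131828, chromosome X, 19343893 to 19361705, plus strand) was at 166, 156 and 155 CPM in untreated replicates 1, 2 and 3. In raffinose replicates 1, 2 and 3 it was at 146, 148 and 134 CPM. The groups did not overlap, but the log2 fold change of -0.15 (SE 0.06) did not pass (edgeR adjusted p = 0.370). PDHB, the beta chain (ENSG00000168291, chromosome 3, 58427630 to 58433857, minus strand), was at 152, 131 and 146 CPM without and at 157, 153 and 143 CPM with raffinose, so that the groups overlapped. On the FPKM scale they did not, by a small gap (at most 25.88 in untreated and at least 25.98 in raffinose libraries). The log2 fold change of PDHB was 0.08 (SE 0.07, edgeR adjusted p = 0.713), and it was 0.02 without untreated replicate 2 and 0.12 without untreated replicate 1.

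DLAT, the acetyltransferase that is the E2 of this complex (ENSG00000150768, chromosome 11, 112025408 to 112064404, plus strand), was at 180.5, 172 and 166 CPM in untreated and at 153.5, 154 and 171 CPM in raffinose libraries. The third raffinose library lay among the untreated ones. The log2 fold change of DLAT was -0.11 (SE 0.07, edgeR adjusted p = 0.523). PDHX (ENSG00000110435, chromosome 11, 34915829 to 35020591, plus strand) is the related protein that anchors E3 in the pyruvate complex. PDHX was at 47.1, 48.5 and 48.4 CPM without raffinose and at 43.9, 63.5 and 48.1 CPM with it. The second raffinose library stood above all others, and the log2 fold change of 0.11 (SE 0.14, edgeR adjusted p = 0.782) became -0.06 without it. PDHX shares 551 bases at its start (chromosome 11, 34915829 to 34916379) with APIP on the opposite strand, which averaged 29.4 ± 3.35 CPM in untreated and 25.1 ± 0.732 CPM in treated cells. Whether strand was used in counting is not given in the sources used here, so reads from the shared stretch cannot be assigned with certainty.

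The branched-chain complex acts downstream of the aminotransferases that make its substrates. BCKDHA, its E1 alpha chain (ENSG00000248098, chromosome 19, 41397808 to 41425002, plus strand), was at 39.0, 36.1 and 38.3 CPM without and at 35.5, 40.2 and 35.3 CPM with raffinose. Its log2 fold change was -0.03 (SE 0.08, edgeR adjusted p = 0.897), and its direction turned to 0.002 on the scales of log2(FPKM + 1) and log2(FPKM + 0.1). BCKDHB, the E1 beta chain (ENSG00000083123, chromosome 6, 80106647 to 80346254, plus strand), was at 20.0, 17.5 and 24.0 CPM in untreated and at 20.3, 20.9 and 21.0 CPM in raffinose libraries. All raffinose libraries of BCKDHB lay inside the untreated range, with a log2 fold change of 0.02 (SE 0.13, edgeR adjusted p = 0.968) that turned to -0.08 without untreated replicate 2. DBT, the E2 of this complex (ENSG00000137992, chromosome 1, 100186919 to 100249834, minus strand), was at 17.6, 16.5 and 17.1 CPM without and at 19.1, 20.2 and 22.7 CPM with raffinose. The groups of DBT did not overlap, and its log2 fold change of 0.28 (SE 0.09) did not pass (edgeR adjusted p = 0.301).

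**Figure D2:**
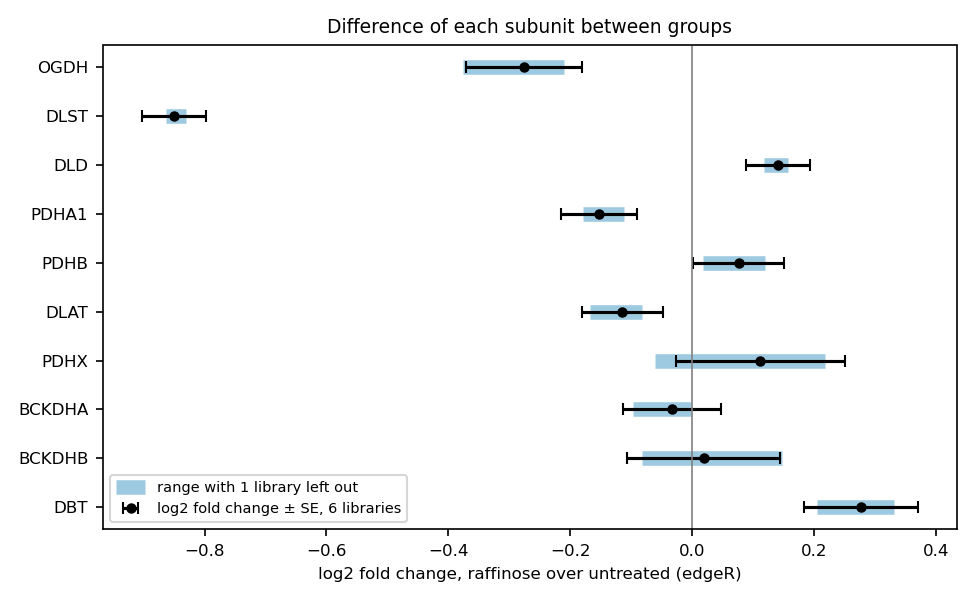
Log2 fold change of each gene, raffinose over untreated (horizontal axis), as the edgeR estimate with its SE (black) and the range over 6 fits that each left out a library (blue). DLST lies between -0.86 and -0.83 over those fits, and PDHX and BCKDHB have ranges that include 0.

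Across the 10 genes, the log2 fold change was above 0 for 5 and below 0 for 5, with a median of -0.01 against 0.01 over all genes tested. DLST was the gene of the 10 that edgeR called, where 0.122% of all genes tested were called. It was also the 1 that DESeq2 called, where 4.59% of the genes with an adjusted p were called. In TMM-scaled CPM, groups did not overlap for 5 of the 10 genes (DLST, OGDH and PDHA1 lower, DLD and DBT higher), where 21.5% of all genes had groups that did not overlap. On the FPKM scale OGDH overlapped and PDHB did not. The same 5 had an unadjusted edgeR p under 0.05, where 13.3% of all genes had one. Since the family was chosen with this comparison known, nothing is read from these shares.

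Per length, 5 subunits of the pyruvate and 2-oxoglutarate complexes lay between 24.9 and 33.4 FPKM in untreated cells, and BCKDHB and DBT of the branched-chain complex had the lowest of the 10. The order of mean FPKM was DLAT at 33.4 ± 0.944, OGDH at 30.5 ± 4.32, PDHA1 at 28.97 ± 0.579, DLST at 26.0 ± 0.828 and PDHB at 24.9 ± 1.51. DLD at 17.4 ± 0.289, BCKDHA at 13.8 ± 0.383, PDHX at 10.6 ± 0.362, BCKDHB at 4.13 ± 0.667 and DBT at 1.24 ± 0.0215 FPKM followed (SD, n = 3). Neighbours in this order whose untreated libraries overlapped were DLAT and OGDH, OGDH and PDHA1, and DLST and PDHB. In raffinose libraries DLST was at 14.8 ± 0.477 FPKM, below DLD at 19.7 ± 0.172 and close to BCKDHA at 13.9 ± 0.858. The FPKM of DLST was at the 92.0 percentile of tested genes in untreated cells and that of DBT at the 41.8 percentile.

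**Figure D3:**
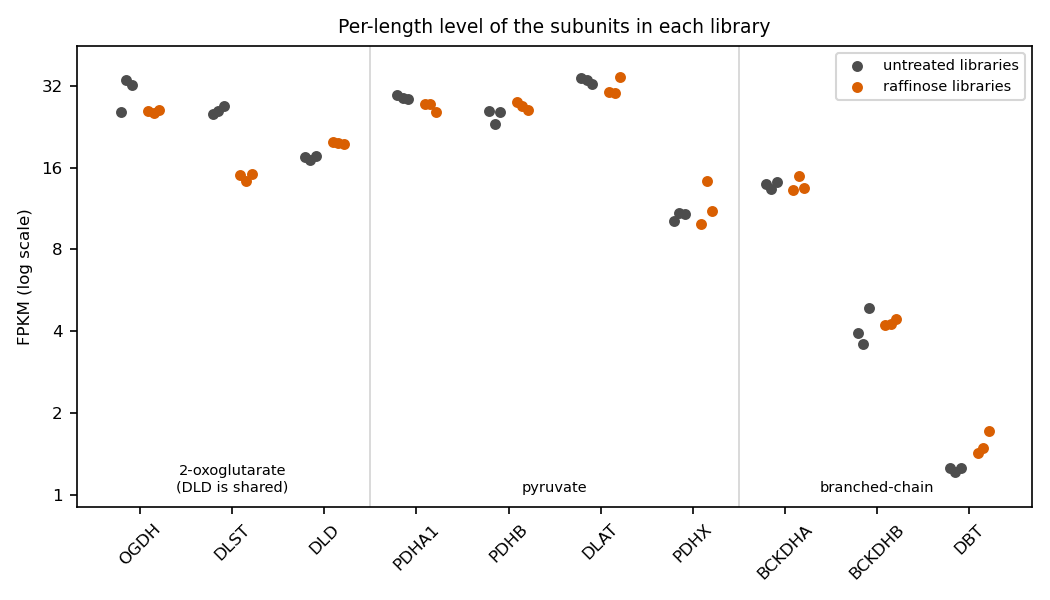
Level per length in FPKM (vertical axis, log scale) of the 10 genes in each untreated (grey) and raffinose (orange) library, grouped by complex. DLST moves from 26.0 ± 0.828 FPKM, between PDHA1 and PDHB, to 14.8 ± 0.477 FPKM, next to BCKDHA.

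Ratios of subunits within a library do not depend on the scaling between libraries. The FPKM ratio of DLST to OGDH, its E1 partner, was 0.990, 0.773 and 0.833 in untreated and 0.581, 0.560 and 0.582 in raffinose replicates 1, 2 and 3. The ratio of DLST to DLD was 1.45, 1.52 and 1.52 without and 0.758, 0.726 and 0.772 with raffinose. DLST was thus above DLD in every untreated library and below it in every raffinose library. The ratio of DLST to DLAT had a mean of 0.780 ± 0.0471 without and 0.468 ± 0.0290 with raffinose. That of DLST to DBT had a mean of 21.0 ± 0.751 without and 9.65 ± 0.901 with raffinose. Ratios that hold DLST carry the values that chose it and were not tested.

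Among 4 ratios without DLST, the PDHA1 to PDHB ratio was 1.14, 1.24 and 1.11 in untreated and 0.977, 1.01 and 0.985 in raffinose libraries. These groups did not overlap (exact two-sided permutation p = 0.1, adjusted p = 0.2 over the 4 ratios). The OGDH to DLD ratio was 1.46, 1.96 and 1.83 without and 1.304, 1.297 and 1.33 with raffinose, also without overlap (exact permutation p = 0.1, adjusted p = 0.2). With 3 libraries against 3 the smallest p that this test can give is 0.1. The PDHX to DLAT ratio had a mean of 0.318 ± 0.0178 without and 0.373 ± 0.0848 with raffinose (exact permutation p = 0.5). The ratio of BCKDHA to BCKDHB was 3.39 ± 0.442 and 3.225 ± 0.233 (exact permutation p = 0.7).

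**Figure D4:**
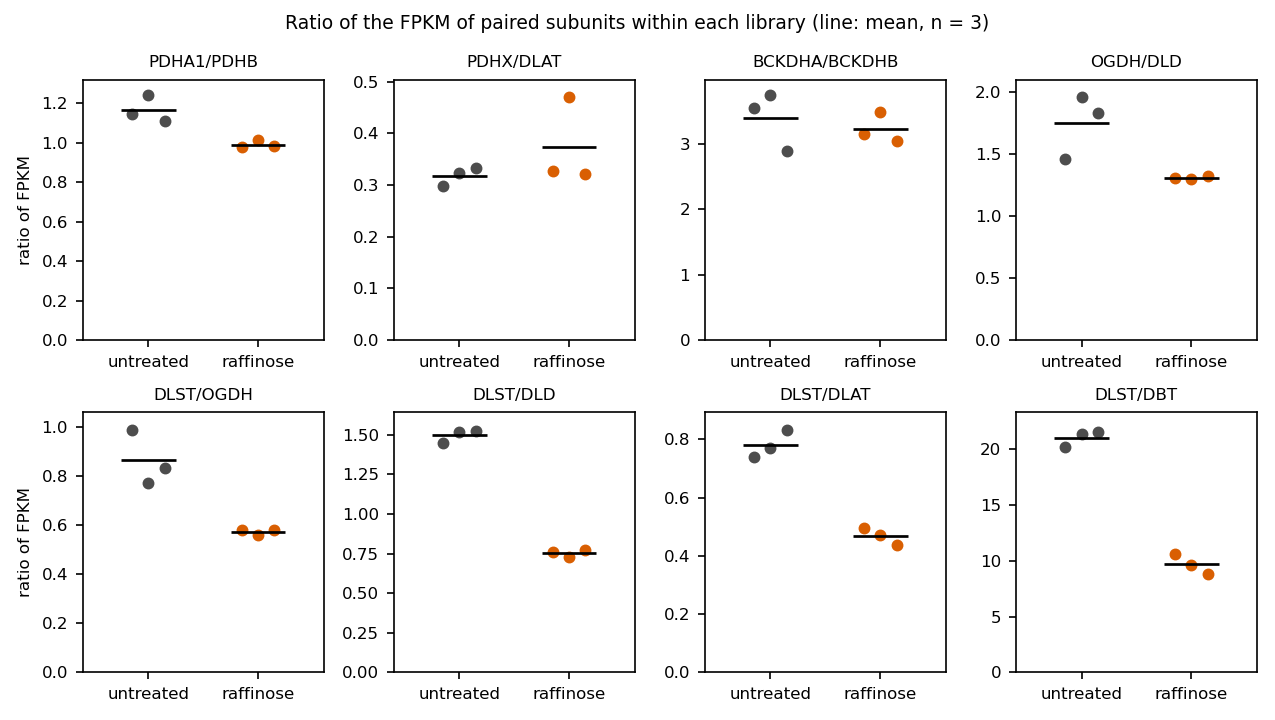
Ratio of the FPKM of paired subunits (vertical axes from 0) in each library, with lines at group means. The DLST to DLD ratio lies at 1.45 to 1.52 in untreated and at 0.726 to 0.772 in raffinose libraries, and the PDHX to DLAT and BCKDHA to BCKDHB ratios overlap between groups.

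The genes around DLST on chromosome 14 were examined for shared differences. No gene of the table overlaps DLST. Within 200 kb, 7 genes had a mean of at least 1 FPKM in a group: YLPM1, EIF2B2, MLH3, FCF1, ACYP1, AREL1 and NEK9. The nearest, YLPM1, lies 44.6 kb away and averaged 76.0 ± 5.675 CPM in untreated and 80.8 ± 4.02 CPM in treated cells. Next is EIF2B2, a subunit of the exchange factor of translation initiation, at 61.1 ± 7.08 and 59.5 ± 5.11 CPM. The log2 fold changes of the 7 ranged from -0.15 for ACYP1 to 0.21 for NEK9, the groups of each overlapped, and the edgeR adjusted p ranged from 0.428 for NEK9 to 0.957 for FCF1. The processed pseudogene DLSTP1 on chromosome 1, which could take reads of DLST, had counts of 61, 42 and 52 in untreated and 84, 43 and 73 in raffinose libraries, where DLST had 8747 to 9158 and 4939 to 5213.

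By Pearson correlation of log2 CPM over the 6 libraries, the genes most like DLST among 11952 other genes with at least 1 FPKM were FAM43A (r = 0.999), RPTOR (0.999), ZBTB2 (0.998), HACD3 (0.997) and COA7 (0.997). The 6 points share the division into 2 groups. Their log2 fold changes ranged from -1.57 for HACD3, a dehydratase of fatty acid elongation, to -0.18 for COA7, an assembly factor of respiratory complexes. These 5 were picked by their likeness to DLST over the same libraries, so their p-values are a description. Of them, HACD3 was called (edgeR adjusted p = 0.00131), where 0.122% of all genes tested were called. The next smallest edgeR adjusted p was 0.059 for FAM43A.

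Enzymes and carriers around the complexes were examined in 8 lists of 98 genes, of which 96 were tested. Of these, 32 had a log2 fold change above 0 and 64 below 0, with a median of -0.06. Over all genes tested, 9625 were above 0 and 9238 below 0. Among genes with a mean of at least 1 FPKM in a group, 5722 were above 0 and 6240 below 0, with a median of -0.01. None of the 96 passed by edgeR, where 0.122% of all genes tested were called. Of the 96, 22 had an unadjusted p under 0.05, where 13.3% of all genes had one. DESeq2 called 2 higher (PDK3 and HIBADH) and 4 lower (SUCLG2, PSAT1, BCAT1 and LONP1) of the 96, where it called 4.59% of all genes with an adjusted p. None of the 9 kinases and phosphatases passed by edgeR, and 3 had an unadjusted p under 0.05, beside the same 0.122% and 13.3% of all genes. PDK3, a kinase that inactivates the pyruvate complex, averaged 12.2 ± 0.802 CPM in untreated and 17.1 ± 1.91 CPM in treated cells (log2 fold change 0.49, SE 0.11, edgeR adjusted p = 0.189, DESeq2 adjusted p = 0.0166). BCKDK, the kinase of the branched-chain complex, was at 54.9 ± 3.06 and 44.9 ± 2.94 CPM, and PPM1K, its phosphatase, at 5.46 ± 0.639 and 7.64 ± 0.472 CPM. Their edgeR adjusted p values were 0.218 and 0.225.

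PDPR, the regulatory subunit of the pyruvate dehydrogenase phosphatase, split the raffinose group. It reached 82.4, 87.2 and 98.4 CPM in the untreated libraries, and 29.4, 28.5 and 88.0 CPM in the raffinose ones, in order of replicate. The third raffinose library lay inside the untreated range, and the log2 fold change of -0.88 (SE 0.44) did not pass (edgeR adjusted p = 0.460). HIBADH, an enzyme of valine breakdown, reached 81.9, 87.4 and 37.9 CPM in the raffinose libraries, in order of replicate, against 37.4, 33.5 and 39.9 CPM in untreated ones. Here too the third raffinose library lay among the untreated ones (edgeR adjusted p = 0.295, DESeq2 adjusted p = 0.0446). DLST showed no such division, with 80.1 CPM in that library.

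Among 16 genes of the TCA cycle and pyruvate carboxylation, 5 were positive and 11 negative, with a median of -0.07. SUCLG2, a subunit of the succinyl-CoA ligase that uses the product of the DLST reaction, was at 117, 116 and 111 CPM in untreated and at 92.2, 90.0 and 93.0 CPM in raffinose libraries. Its groups were apart by more than their spread, and its log2 fold change was -0.32 (SE 0.05, edgeR adjusted p = 0.117, DESeq2 adjusted p = 4.4e-04). The regulatory subunits IDH3G and IDH3B of the isocitrate dehydrogenase that makes 2-oxoglutarate had log2 fold changes of -0.27 (SE 0.08) and -0.20 (SE 0.07), and PC, pyruvate carboxylase, one of -0.18 (SE 0.08). IDH3A, the catalytic subunit of that enzyme, had values in the other direction, at 79.7 ± 8.64 CPM in untreated and 92.6 ± 6.79 CPM in raffinose libraries, without overlap (log2 fold change 0.22, SE 0.10, edgeR adjusted p = 0.417). The further succinyl-CoA ligase subunits SUCLG1 and SUCLA2 had log2 fold changes of -0.04 (SE 0.11) and 0.06 (SE 0.08).

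Of 11 genes on routes from glutamine and glutamate to 2-oxoglutarate, 3 were positive and 8 negative, with a median of -0.12. PSAT1, which makes 2-oxoglutarate while it forms phosphoserine, averaged 267 ± 13.7 CPM in untreated and 216 ± 4.89 CPM in treated cells (edgeR adjusted p = 0.144, DESeq2 adjusted p = 0.00494). The glutamine carrier SLC1A5 was at 340.1 ± 18.5 and 297 ± 11.7 CPM. For PHGDH, the first enzyme of serine synthesis, the log2 fold change was -0.25 (SE 0.08). The edgeR adjusted p of SLC1A5 was 0.275 and that of PHGDH 0.276.

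The 17 genes of lipoate synthesis and attachment, on which the E2 arms depend, had 4 positive and 13 negative values with a median of -0.08. Log2 fold changes were 0.18 (SE 0.06) for ISCA1, an iron-sulfur cluster carrier, for MCAT of the mitochondrial fatty acid pathway -0.38 (SE 0.16), for the ferredoxin FDX1 -0.17 (SE 0.07) and for the cluster carrier NFU1 -0.14 (SE 0.06). Lipoate synthase LIAS was at 14.9 and 13.9 CPM on average. In branched-chain amino acid breakdown, 10 of 20 genes were positive and 10 negative, with a median of 0.01. BCAT1, the cytosolic aminotransferase, averaged 152 ± 9.28 CPM in untreated and 108 ± 19.5 CPM in treated cells (edgeR adjusted p = 0.215, DESeq2 adjusted p = 0.0335). HIBCH and ACAD8, further enzymes of valine breakdown, had log2 fold changes of 0.34 (SE 0.09) and 0.19 (SE 0.06).

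Among 11 genes of mitochondrial import and proteolysis, 1 was positive and 10 negative, with a median of -0.08. LONP1, the matrix protease, averaged 207 ± 3.51 CPM in untreated and 144 ± 23.1 CPM in treated cells (edgeR adjusted p = 0.176, DESeq2 adjusted p = 0.00782). The import chaperone HSPA9 was at 1055 ± 55.8 and 936 ± 22.6 CPM, and CLPP and TIMM44 had log2 fold changes of -0.21 (SE 0.09) and -0.21 (SE 0.11). Of 7 genes for carriers and kinases of thiamine and pyruvate, 6 were tested, 3 with positive and 3 with negative values. MPC1, a subunit of the mitochondrial pyruvate carrier, was at 7.44 ± 1.49 and 10.1 ± 0.866 CPM (edgeR adjusted p = 0.344), while MPC2, its partner, was at 45.5 and 43.7 CPM. SLC19A2, a thiamine carrier of the cell membrane, had a log2 fold change of -0.04 (SE 0.09).

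Relatives of the 10 genes were mostly low or close between groups. DHTKD1, an E1 of lysine breakdown that works with DLST, averaged 32.04 ± 1.40 CPM in untreated and 35.3 ± 2.70 CPM in treated cells. MRPS36, which links E3 to the 2-oxoglutarate complex, was at 44.4 ± 2.55 and 42.1 ± 3.33 CPM. GCSH, the lipoyl protein of glycine cleavage, was at 22.1 ± 2.86 and 20.4 ± 1.70 CPM, and AMT of the same system at 1.15 ± 0.340 and 0.736 ± 0.191 CPM. OGDHL, the tissue-restricted relative of OGDH, was at 1.85 and 1.66 CPM on average. PDHA2, the testis form of PDHA1, had a count of 4 in 1 library and 0 in the other 5. The edgeR adjusted p of the 6 tested relatives ranged from 0.467 for AMT to 0.987 for GLDC.

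**Figure D5:**
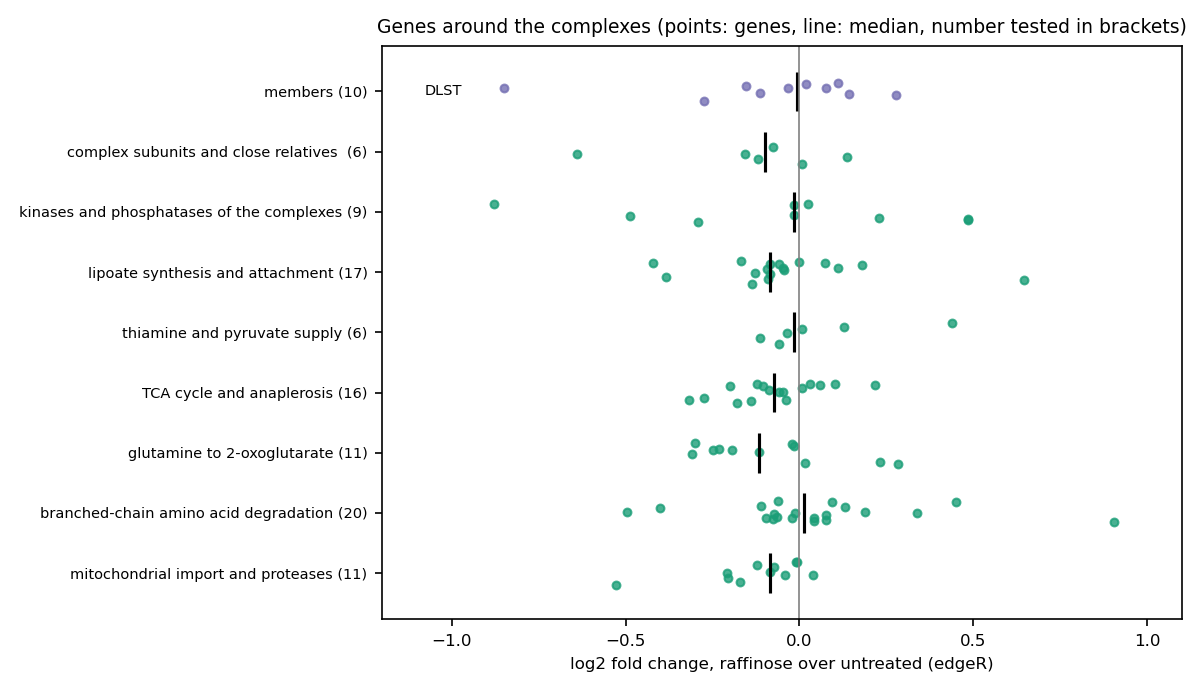
Log2 fold change, raffinose over untreated (horizontal axis), of the 10 subunit genes and of the tested genes of 8 lists around them, with a line at each median. DLST, chosen for its difference, lies at -0.85, apart from the other 9 subunits, which lie between -0.28 and 0.28. The medians of the lists lie between -0.12 and 0.01, and their single genes range from -0.88 for PDPR to 0.90 for HIBADH.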

How the data were processed

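Poly(A) RNA of 6 libraries was sequenced as read pairs with dUTP-marked second strands, per the labels' protocols. Per the submitters' processing notes, the tools were HISAT2 2.0.4, StringTie 1.3.4d and cutadapt 1.9, besides DESeq2 and edgeR, with roles not stated. Genome build, annotation and strand setting: not given in the sources used here. As 1 table, the authors deposited FPKM values and estimated counts per gene, per the file headers. Where a count is 0, the deposited FPKM reads 1e-04. Within a gene, count per FPKM varied between libraries by an SD of at most 8.3e-04 (log2, after scaling) for the 10 genes, so both columns carry the same information. Deposited counts of 4 were more frequent than counts of 3 or 5 (1382, 456 and 286 genes in raffinose replicate 1), so that 1 fragment seems to add 4 and counts overstate fragments.

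Counts were tested as deposited, since all are whole numbers, with edgeR 4.0.16 (R 4.3.3): filterByExpr with a minimum count of 10, TMM, glmQLFit and glmQLFTest, Benjamini-Hochberg adjustment over 18863 genes, threshold 0.05. SE is the log2 fold change divided by the square root of the F statistic. Ratios were tested by exact permutation (scipy 1.17.1). The fits were tested on simulated counts. DESeq2 1.42.0, limma 3.58.1 on log2(FPKM + 1) and log2(FPKM + 0.1), other scalings and filters, counts divided by 4, the replicate block and each library left out were alternatives. The members and lists were chosen with earlier results of these data known. Genes named beside the 10 are up to 4 per list with the smallest p, called genes, overlapping or neighbouring genes and the 5 most like DLST; some that this rule names are not reported here. Others named were chosen after their values were seen, among them IDH3A, SUCLG1, SUCLA2, LIAS, MPC2, OGDHL, PDHA2 and GLDC. Promoter windows are from RefSeq (GRCh38.p14).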

Additional observations from a re-analysis of the deposited data

How the results depend on the processing

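DLST kept its direction in all 16 alternatives and its call in 14, with log2 fold changes from -0.86 to -0.77. The call was lost without untreated replicate 3 (adjusted p = 0.0596) and with the replicate block, where the log2 fold change was -0.85 (edgeR adjusted p = 0.265) and 0 of the 10 subunit genes were called. With libraries left out in turn, 0 to 1 of the 10 were called and DLST ranged from -0.86 to -0.83. In each of those fits fewer samples remain.

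Against 23 genes called in all by edgeR, 42 were called with a filter at 1 FPKM, 663 by DESeq2, 35 with counts divided by 4, and 0 with the replicate block, where 1932 had an unadjusted p under 0.05. With a library left out 4 to 23 were called, 4 without untreated replicate 3 (all lower) and 11 without raffinose replicate 2. The cause of these differences was not tested.

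Deviations from the group means correlated between same-numbered libraries at -0.01, -0.03 and 0.01, and 0 of 6 correlated best with their own number, so the numbers were not taken to pair libraries.

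Among the other 9 genes the log2 fold change turned for BCKDHA (0.0019 on log2(FPKM + 1) and 0.0020 on log2(FPKM + 0.1)), for PDHX (-0.061 without raffinose replicate 2, within a range of -0.061 to 0.219 over libraries left out) and for BCKDHB (-0.082 without untreated replicate 2, range -0.082 to 0.148). The BCKDHA to BCKDHB log2 ratio difference turned to 0.0089 without untreated replicate 2 (range -0.176 to 0.0089). None of these was called under any alternative.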
